A study of Mus musculus with 60 samples.

Results

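Nuclear transfer (NT) embryos made from mouse embryonic fibroblasts (MEFs), called NTM, were compared at the 1-cell stage with NT embryos made from cumulus cells (CCs), called NTC, across every gene of the deposited expression table. The members were the 3 NTM and the 3 NTC 1-cell libraries, 6 of the 60 libraries in 20 groups, and 10799 of the 27238 genes in the table had a mean of at least 0.5 RPKM over these 6 libraries and were tested. RPKM counts the reads of a gene per kilobase of its exons and relative to the reads of the library, so a value is a share of the RNA that was sequenced and not an amount per embryo.

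In both groups a somatic nucleus replaced the chromosomes of a metaphase II oocyte from superovulated BDF1 females (C57BL/6 crossed with DBA2), and the donor cells came from the same background. CCs are the somatic cells that surround the ovulated oocyte and were kept cold until injection, whereas MEFs were cultured from midgestation fetuses for a few passages and starved of serum. Both groups were activated with strontium chloride and cytochalasin B in the presence of Scriptaid, a histone deacetylase inhibitor, were cultured in vitro, and were collected as single embryos with pronuclei. In vivo 1-cell embryos (C57BL/6 females mated with DBA2 males, fertilized and not activated in this way), NTC and NTM 2-cell embryos, CCs and MEFs, each with 3 libraries, served as references. The labels do not tie embryos to days, donors or MEF preparations, so p-values measure only the spread between these single embryos, and donor cell type cannot be told apart from donor culture or from any handling that differed between the NT series.

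A mouse 1-cell embryo lives on messenger RNA (mRNA) that the oocyte stored while it grew. Transcription is almost silent in the metaphase II oocyte and starts weakly in the pronuclei, with the major wave of genome activation at the 2-cell stage, and meanwhile maternal transcripts are polyadenylated, translated or removed. Both kinds of NT embryo received the same type of cytoplasm. The share of the RNA that the oocyte had made before the transfer was not measured.

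The 6 libraries were similar in depth. NTC embryos had 10118230, 15929076 and 13031583 reads on genes and NTM embryos 14158395, 14779093 and 16507415, so that a transcript of 2000 bases listed at 0 could still hold up to 0.0909 to 0.148 RPKM (3 reads, counting error only). More genes were above 0 in the NTC libraries (14021 to 14270) than in the NTM libraries (12097 to 12346), and the groups did not overlap. Across the tested genes, which are not independent replicates, log2(RPKM + 1) correlated at 0.935 to 0.946 within NTC, at 0.904 to 0.915 within NTM and at 0.815 to 0.860 between them. Of the reference libraries, in vivo 1-cell replicate 1 stood apart with 9491 genes above 0 against 12187 and 12593 in the others. Values are given below in the order of replicates 1, 2 and 3.

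Of the 10799 tested genes, 2142 (19.8%) differed between NTM and NTC 1-cell embryos at an adjusted p (Benjamini-Hochberg) under 0.05 in limma and a log2 difference of at least 1 in size. Of these, 609 (5.64% of tested genes) were higher and 1533 (14.2%) were lower in NTM, so that 28.4% of the differing genes were higher. The 3 NTM values lay above the 3 NTC values for all 609 higher genes, and below them for 1530 of the 1533 lower genes. Over all tested genes NTM lay above NTC in every library for 1779 (16.5%) and below it for 2766 (25.6%). An unadjusted p under 0.05 was reached by 4098 genes. The count rested on the replicates, since it was 1193 without NTC replicate 3 and 1324 without NTC replicate 2, and one fit that shared the spread over all 20 groups gave 1060.

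The balance of the directions depended on scaling. The median log2 difference of all tested genes was -0.19 with the deposited RPKM. With median-ratio scaling it was -0.06, and 858 genes were higher and 1340 lower (39.0% higher). After the trend with transcript GC content was removed the counts were 937 and 1062 (46.9% higher) and the median was 0.03. After the trend with the C-richest window was removed they were 930 and 1056 (46.8%, median 0.01), and after quantile normalisation 921 and 1081 (46.0%, median 0.096). None of the 2142 genes that could also be fitted under these settings changed sign, and 1949, 1630, 1619 and 1637 of them were called again, respectively.

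The sizes of the differences were unequal as well. Among lower genes the median log2 difference was -1.71, 527 genes were lower by at least 2 and 119 by at least 3. Among higher genes the median was 1.33, 58 genes were higher by at least 2 and 3 by at least 3. Among the lower genes, 44 were listed at 0 in every NTM library, and these passed the filter through their NTC values alone. No higher gene was listed at 0 in every NTC library. The share of all tested genes listed at 0 in this way was not counted, and the NTM libraries had fewer genes above 0. The genes with a log2 difference of at least 3 were Gm23935, Ripply3 and Acbd7, and the 8 genes lower by at least 5 were Cfl1, Selenow, Phf1, Rln3, Hmga1, Spp1, Hmga1b and Gm44796. The predicted genes Gm23935 and Gm44796 are named here only because of their values.

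**Figure D1:**
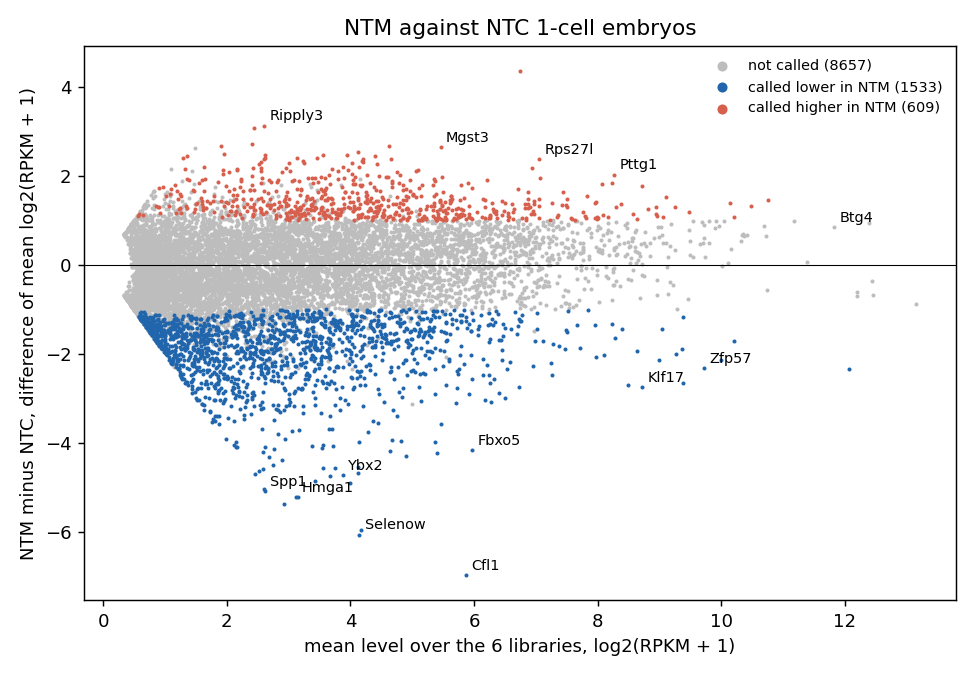
Difference between NTM and NTC 1-cell embryos (difference of the mean log2(RPKM + 1) of 3 libraries each, vertical axis) against the mean level over the 6 libraries (horizontal axis) for the 10799 tested genes, 1 point per gene, in blue for 1533 genes called lower in NTM, in red for 609 called higher and in grey for the rest. Points below 0 reach -6.96 (Cfl1), whereas only 3 points called higher reach 3.

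The genes with the largest differences are shown here by a stretch of their own transcript, because base composition of the transcript, which the selection did not use, moved with the direction of the difference (given with its values further on). For the 5 named genes with the largest difference in each direction, except 1 higher gene whose window is not reported here, the 30 bases with the most C within the last 1000 bases of the longest annotated transcript were read from the GENCODE M21 transcripts of genome build GRCm38, 5′ to 3′ on the strand of the gene, with every C in capitals. The first 5 genes were lower in NTM.
Cfl1: gttCtCttCagCtCtCCCCtCtCttCCCtC
Selenow: CCtgCCCtgCCCCCCtgCCCtCttCCCCaC
Phf1: ggCCtCggtgtCtCCaCCaCCCCCCagCCC
Rln3: CtggCCCtaaCCaaatCCCCCCaggCtttC
Hmga1: CCCCCtCCttttCgCtCCtCCCtgCCCCCC
The next 4 genes were higher in NTM.
Ripply3: gaCtCCtCCCtaaaCCtCaCCaCCCCtCtC
Acbd7: CaCagCattCCgtgtCtCatCattatgtCC
Phlda2: CtCaCCgCCgaCCgCCtgCgCCtCttCtCC
Hspb1: CCCgCtgCCCgCCgCgaCCgCCgagggCCC

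These windows held 15 (Cfl1), 20 (Selenow), 17 (Phf1), 14 (Rln3) and 20 (Hmga1) C among the lower genes, and 17 (Ripply3), 10 (Acbd7), 17 (Phlda2) and 17 (Hspb1) among the higher genes. The ranges of the 2 sets overlapped, so these 9 genes taken singly did not separate by their window, and the relation given further on is one over 10746 genes. The windows of Cfl1 (chr19:5494292-5494321, + strand), Selenow (chr7:15917346-15917375, - strand), Hmga1 (chr17:27563227-27563256, + strand) and Ripply3 (chr16:94336339-94336368, + strand) lie in the 3′ UTR. Those of Rln3 (chr8:84043222-84043251, - strand), Phlda2 (chr7:143502338-143502367, - strand) and Hspb1 (chr5:135888229-135888258, + strand) lie in coding sequence. The window of Phf1 (chr17:26936680-26936799, + strand) is coding and crosses an intron, and that of Acbd7 (chr2:3336186-3336215, + strand) holds both coding and UTR bases.

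Among genes lower in NTM, the largest difference belonged to Cfl1, which encodes cofilin, an actin-severing protein. Its level was 657, 569 and 740.1 RPKM in NTC and 4.37, 5.66 and 3.01 RPKM in NTM embryos, a 151-fold difference of means (log2 difference -6.96 ± 0.23, adjusted p = 4.52e-06, where ± gives the SE of the limma fit here and below). In vivo 1-cell embryos had 38.5, 460.3 and 511 RPKM, so that the NTM embryos lay below all other 1-cell embryos, and the donor cells did not differ in the same way (CCs 2714, 2078 and 3311 RPKM, MEFs 2957, 2746 and 3617 RPKM). Cfl1 overlaps exons of Snx32 on the opposite strand, and reads of such a pair cannot be told apart without strand.

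Selenow encodes the small selenoprotein W. It was measured at 162, 134 and 134 RPKM in NTC and 0.672, 3.31 and 0.412 RPKM in NTM embryos (log2 difference -6.06 ± 0.40, adjusted p = 8.23e-05). Phf1, a partner of the Polycomb repressive complex PRC2, was measured at 158, 127 and 137 RPKM in NTC and 1.803, 0.696 and 1.52 RPKM in NTM embryos (log2 difference -5.95 ± 0.26, adjusted p = 2.62e-05). Both genes were abundant in every NTC embryo and close to absent in every NTM embryo. In vivo embryos had 222, 327 and 337 RPKM of Phf1, above every NTC embryo, and 276, 35.6 and 45.2 RPKM of Selenow, on both sides of the NTC values and above every NTM embryo. Phf1 shares exon sequence with Cuta on the opposite strand.

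Hmga1 encodes an AT-hook protein that bends DNA and shapes chromatin. Its level was 48.6, 52.9 and 55.6 RPKM in NTC and 0.284, 0.442 and 0.578 RPKM in NTM embryos (log2 difference -5.22 ± 0.26, adjusted p = 2.62e-05). Hmga1b, a near copy of it, was measured at 34.4, 38.96 and 28.6 RPKM in NTC and 0.1303, 0.0416 and 0.0373 RPKM in NTM embryos (log2 difference -5.02 ± 0.29, adjusted p = 3.88e-05). The 2 loci share 69.1% of the 50-base words of Hmga1 and 85.5% of those of Hmga1b, so their reads may have been split between them and the values of each locus are uncertain. In vivo embryos had 26.5, 80.9 and 78.2 RPKM of Hmga1 but only 0.0589, 0.485 and 0.169 RPKM of Hmga1b.

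Several of the lower genes act in the oocyte and the early embryo. Ybx2 (Msy2) encodes the Y-box protein that coats and stabilises stored maternal mRNA, and had 99.6, 60.9 and 68.4 RPKM in NTC and 1.84, 1.94 and 1.83 RPKM in NTM embryos (log2 difference -4.72 ± 0.26, adjusted p = 3.79e-05). Ube2s encodes the ubiquitin-conjugating enzyme that extends chains on substrates of the anaphase-promoting complex, and had 62.9, 43.5 and 65.9 RPKM in NTC and 0.989, 1.03 and 0.978 RPKM in NTM embryos (log2 difference -4.85 ± 0.27, adjusted p = 3.79e-05). The NTM embryos differed little from each other in both genes and lay far below the lowest NTC embryo. In vivo embryos had 20.2, 17.6 and 35.6 RPKM of Ybx2, which is between the 2 NT groups, and 462, 288 and 200.4 RPKM of Ube2s, which is above both.

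The other lower genes named by the rule were not oocyte genes by function. Rln3, the neuropeptide relaxin-3, had 51.6, 45.6 and 45.9 RPKM in NTC and 0.223, 0.213 and 0.0956 RPKM in NTM embryos (log2 difference -5.37 ± 0.26, adjusted p = 2.62e-05). Nr2e1, an orphan nuclear receptor of neural progenitors, had 61.97, 61.2 and 72.04 RPKM in NTC and 0.647, 4.63 and 0.653 RPKM in NTM embryos (log2 difference -4.73 ± 0.46, adjusted p = 0.000402). Both were also measured in vivo, at 30.7, 62.8 and 103 RPKM (Rln3) and 14.3, 26.7 and 24.5 RPKM (Nr2e1), so their transcripts were part of the 1-cell embryo without nuclear transfer. Ubl7 (ubiquitin-like protein 7) was measured at 102, 69.96 and 86.98 RPKM in NTC and 1.66, 1.98 and 2.13 RPKM in NTM embryos (log2 difference -4.89 ± 0.24, adjusted p = 2.62e-05). Nat14 (an N-acetyltransferase-like protein) was measured at 24.6, 30.03 and 26.3 RPKM in NTC and 0.0438, 0.126 and 0.0752 RPKM in NTM embryos (log2 difference -4.69 ± 0.29, adjusted p = 5.24e-05). For each of these 4 genes the lowest NTC value was more than 10 times the highest NTM value.

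Spp1, like Hmga1b, stood apart from the other lower genes named by the rule in its low in vivo level. Spp1 encodes osteopontin, a secreted phosphoprotein, and had 67.7, 14.3 and 41.8 RPKM in NTC and 0.0857, 0 and 0.0735 RPKM in NTM embryos (log2 difference -5.08 ± 0.51, adjusted p = 0.00048), whereas in vivo 1-cell embryos had only 0.0581, 0 and 0.0334 RPKM. CCs had 42435, 9071 and 14095 RPKM and MEFs 383, 407 and 2137 RPKM. The spread among NTC embryos was wide, but their lowest value was above every NTM embryo, as the rule requires, and above every in vivo embryo.

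**Figure D2:**
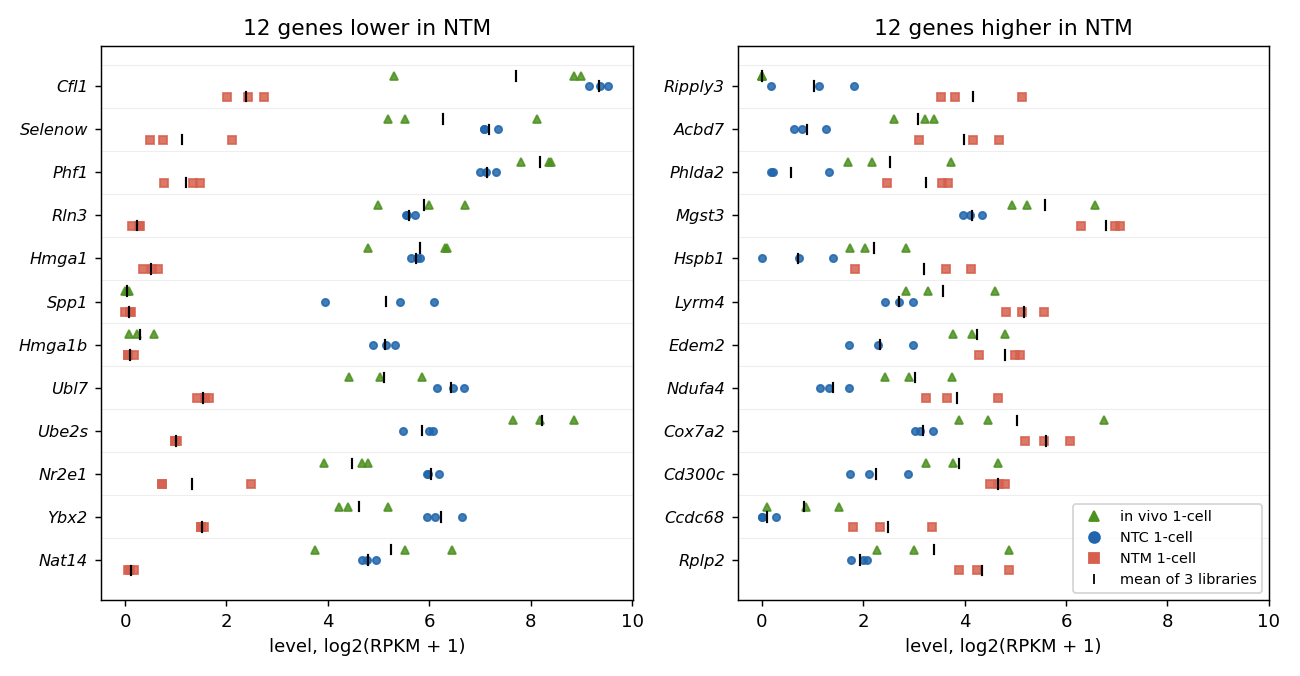
Level of the 12 genes with the largest negative (left) and the 12 with the largest positive difference (right) in each 1-cell library, as log2(RPKM + 1) on the horizontal axis, with green triangles for in vivo, blue circles for NTC, red squares for NTM and a black bar for the mean of 3 libraries. Only genes whose NTC and NTM points do not overlap were eligible for this choice. In vivo points lie at or near the NTM points for Spp1 and Hmga1b but not for the other lower genes.

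Among genes higher in NTM, differences were smaller and levels in NTC mostly above 0. Mgst3, a microsomal glutathione S-transferase, was the most abundant of the 12 named by the rule, with 14.7, 19.3 and 16.2 RPKM in NTC and 133, 77.7 and 124 RPKM in NTM embryos (log2 difference 2.64 ± 0.25, adjusted p = 0.000323) and 93.9, 36.4 and 29.7 RPKM in vivo. Pttg1 encodes securin, the inhibitor of separase that the anaphase-promoting complex destroys at anaphase, and had 156, 128 and 173 RPKM in NTC and 657, 531 and 676 RPKM in NTM embryos (log2 difference 2.02 ± 0.17, adjusted p = 0.00021). Rps27l, a p53-inducible paralogue of a ribosomal protein, had 51.6, 54.9 and 66.5 RPKM in NTC and 315, 282 and 303 RPKM in NTM embryos (log2 difference 2.37 ± 0.16, adjusted p = 0.0001). For these 3 genes the lowest NTM value was at least 3 times the highest NTC value. In vivo embryos had 1093, 393 and 295 RPKM of Pttg1 and 348, 81.7 and 65.5 RPKM of Rps27l, where replicate 1, the library that stood apart, was the highest in both cases.

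Small proteins of the mitochondrial respiratory chain were among the higher genes. Cox7a2, a subunit of cytochrome c oxidase, had 9.44, 7.08 and 7.63 RPKM in NTC and 46.6, 35.7 and 66.2 RPKM in NTM embryos (log2 difference 2.44 ± 0.27, adjusted p = 0.0008). Ndufa4, another component of that complex, had 1.22, 1.5001 and 2.28 RPKM in NTC and 8.44, 11.5 and 24.4 RPKM in NTM embryos (log2 difference 2.46 ± 0.41, adjusted p = 0.00419). Cox8a had 66.01, 46.1 and 60.97 RPKM in NTC and 305, 244 and 234 RPKM in NTM embryos (log2 difference 2.16 ± 0.20, adjusted p = 0.000302). Lyrm4, which assists the assembly of iron-sulfur clusters in mitochondria, had 6.85, 5.55 and 4.41 RPKM in NTC and 34.1, 27.1 and 46.4 RPKM in NTM embryos (log2 difference 2.46 ± 0.28, adjusted p = 0.000891). In all 4 genes the lowest NTM value was at least 3 times the highest NTC value. Lyrm4 shares exon sequence with Fars2 on the opposite strand.

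Phlda2, an imprinted gene expressed from the maternal allele that restrains placental growth, had 0.131, 0.166 and 1.52 RPKM in NTC and 11.8, 4.56 and 10.7 RPKM in NTM embryos (log2 difference 2.66 ± 0.47, adjusted p = 0.00548). Ripply3, a co-repressor in T-box pathways, had 0.129, 1.19 and 2.51 RPKM in NTC and 13.1, 34.1 and 10.5 RPKM in NTM embryos (log2 difference 3.12 ± 0.54, adjusted p = 0.00477) and was listed at 0 in all 3 in vivo embryos. Acbd7, an acyl-CoA-binding protein, had 0.558, 1.42 and 0.723 RPKM in NTC and 7.58, 16.8 and 24.8 RPKM in NTM embryos (log2 difference 3.08 ± 0.44, adjusted p = 0.0023). These 3 genes were at or below 2.51 RPKM in every NTC embryo and at or above 4.56 RPKM in every NTM embryo. Among the remaining genes named by the rule, Edem2, which helps to extract misfolded glycoproteins from the endoplasmic reticulum, had 6.91, 3.88 and 2.28 RPKM in NTC and 30.9, 18.4 and 33.1 RPKM in NTM embryos (log2 difference 2.46 ± 0.38, adjusted p = 0.00308). Cd300c, an immunoglobulin-family receptor, had 3.34, 2.36 and 6.41 RPKM in NTC and 24.7, 26.7 and 21.7 RPKM in NTM embryos (log2 difference 2.41 ± 0.33, adjusted p = 0.00198). Ccdc68 had 0, 0 and 0.2201 RPKM in NTC and 2.46, 9.29 and 4.05 RPKM in NTM embryos (log2 difference 2.40 ± 0.45, adjusted p = 0.00664). Rplp2, a protein of the ribosomal stalk, had 3.01, 2.36 and 3.22 RPKM in NTC and 17.96, 13.9 and 28.4 RPKM in NTM embryos (log2 difference 2.40 ± 0.32, adjusted p = 0.00182) and shares 30.7% of its 50-base words with Wdr89. That no NTC value of these 4 genes reached the NTM values follows from the rule by which they were named. Hspb1, the small heat shock protein Hsp27, had 0, 1.64 and 0.6699 RPKM in NTC and 11.4, 16.4 and 2.59 RPKM in NTM embryos (log2 difference 2.48 ± 0.62, adjusted p = 0.0216), its call was lost without NTC replicate 1, NTC replicate 3 or NTM replicate 1, and it shares 51.6% of its 50-base words with the pseudogene Hsp25-ps1.

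Lists of genes by function were then counted, each against the 5.64% higher and 14.2% lower of all tested genes and the median log2 difference of -0.19. Genes that egg activation depends on were called in 1 direction only. Sperm or strontium triggers calcium oscillations in the egg, which are filled from the endoplasmic reticulum and the outside and are read by calmodulin and its kinase. Of 31 tested genes of this list, 0 were higher and 8 lower in NTM (Calr, Camk2g, Slc30a3, Itpr2, Calm2, Orai1, Astl and Mapk3), with a median of -0.52. Calr, the calcium buffer calreticulin, had 57.3, 68.4 and 77.6 RPKM in NTC and 5.003, 14.1 and 4.75 RPKM in NTM embryos (log2 difference -3.08 ± 0.37, adjusted p = 0.00116). Camk2g, the calmodulin-dependent kinase that releases the egg from meiotic arrest, had 188, 179.6 and 165 RPKM in NTC and 21.1, 55.7 and 25.9 RPKM in NTM embryos (log2 difference -2.46 ± 0.32, adjusted p = 0.0016). The calcium channel Orai1 had 18.04, 26.5 and 25.9 RPKM in NTC and 2.65, 7.901 and 2.43 RPKM in NTM embryos (log2 difference -2.33 ± 0.40, adjusted p = 0.00464). Calm2, which encodes calmodulin, had 76.9, 85.03 and 71.8 RPKM in NTC and 14.4, 38.4 and 15.6 RPKM in NTM embryos (log2 difference -1.87 ± 0.35, adjusted p = 0.00634). NTM replicate 2 was the highest of the NTM embryos in all 4 genes but stayed below every NTC embryo. After removal of the trend with GC content, 6 of the list were lower and 1 higher.

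Maternal effect genes, whose transcripts the oocyte stores for the embryo, differed in both directions, with 7 of 47 higher (Brwd1, Nlrp2, Rfpl4, Omt2b, E330034G19Rik, Dppa3 and Omt2a), 10 lower (Sebox, Dnmt3a, Hsf1, Nobox, Zfp57, Zbed3, Npm2, Astl, Nlrp9b and Lhx8) and a median of 0.27. With GC removed the counts were 10 higher and 7 lower, and with median-ratio scaling 10 and 9. Zfp57, the zinc finger protein that guards imprinted methylation, had 1837, 1810.1 and 2055 RPKM in NTC and 276, 603 and 323 RPKM in NTM embryos (log2 difference -2.33 ± 0.26, adjusted p = 0.000801). The homeobox gene Sebox had 219.7, 195 and 202 RPKM in NTC and 15.7, 36.6 and 24.8 RPKM in NTM embryos (log2 difference -3.03 ± 0.28, adjusted p = 0.000312). Nlrp9b had 269, 254 and 238 RPKM in NTC and 28.7, 36.2 and 29.2 RPKM in NTM embryos (log2 difference -2.98 ± 0.17, adjusted p = 3.88e-05). These were abundant transcripts in NTC embryos, and in each the highest NTM embryo was below the lowest NTC embryo. Dppa3 (Stella), which protects maternal DNA methylation, had 27.5, 25.8 and 29.2 RPKM in NTC and 70.6, 56.6 and 103 RPKM in NTM embryos (log2 difference 1.41 ± 0.24, adjusted p = 0.00475). The oocyte gene Omt2b, which is close in sequence to Omt2a, had 11.5, 6.78 and 8.88 RPKM in NTC and 45.5, 34.3 and 64.1 RPKM in NTM embryos (log2 difference 2.27 ± 0.30, adjusted p = 0.00158).

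The machinery that stores and removes maternal mRNA was split in a similar way. Of 44 tested genes 5 were higher (Pan2, Cnot8, Edc4, Lsm1 and Ythdf3) and 10 lower (Ybx2, Ddx6, Igf2bp2, Tut7, Cnot3, Lsm14b, Ythdf2, Zfp36l2, Pabpc1l and Pabpn1l), with a median of -0.26. Cnot3, a subunit of the CCR4-NOT deadenylase, had 7.69, 8.04 and 8.02 RPKM in NTC and 0.674, 0.0949 and 0.331 RPKM in NTM embryos (log2 difference -2.73 ± 0.33, adjusted p = 0.00116). Igf2bp2, which binds and stabilises mRNA, had 57.1, 63.9 and 60.9 RPKM in NTC and 12.99, 12.003 and 12.3 RPKM in NTM embryos (log2 difference -2.20 ± 0.19, adjusted p = 0.000265). The RNA helicase Ddx6 had 7.79, 15.2 and 14.4 RPKM in NTC and 2.13, 1.63 and 2.14 RPKM in NTM embryos (log2 difference -2.14 ± 0.34, adjusted p = 0.00332). Subunits of the same deadenylase were thus called in both directions, since Cnot3 was lower and Cnot8 higher.

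Genes of the first wave of transcription at the 2-cell stage were mostly below the filter in these 1-cell embryos, and 18 of 43 were tested. Of these 1 was higher (Tcstv1) and 4 were lower (Klf17, Sp110, Dppa2 and Tmem92), with a median of -0.38, and with median-ratio scaling 3 were higher and 3 lower. Klf17, a Krüppel-like factor stored in the oocyte, had 1189, 1038 and 1060.2 RPKM in NTC and 140.2, 222 and 137 RPKM in NTM embryos (log2 difference -2.74 ± 0.20, adjusted p = 0.000131). Sp110, a nuclear body protein, had 102, 99.4 and 102 RPKM in NTC and 15.5, 36.4 and 18.2 RPKM in NTM embryos (log2 difference -2.16 ± 0.30, adjusted p = 0.00197). Tcstv1 had 12.9, 20.97 and 9.33 RPKM in NTC and 57.1, 43.8 and 53.5 RPKM in NTM embryos (log2 difference 1.83 ± 0.30, adjusted p = 0.00362). Tmem92 had 0.904, 1.72 and 4.21 RPKM in NTC and 0, 0 and 0.0554 RPKM in NTM embryos (adjusted p = 0.031), a call that was lost when any single library was left out except NTC replicate 1.

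Genes with a Zfp symbol made up the largest list, with 12 of 249 higher, 33 lower and a median of -0.19, the same median as all tested genes. They were taken by symbol and not by function. Zfp640, annotated as a transcribed processed pseudogene, and Zfp36l2, which is also in the list of maternal mRNA storage and removal, are among them. With quantile normalisation the direction of this list turned, to 22 higher and 16 lower. The 4 with the largest differences were Zfp955b (102, 208 and 164 RPKM in NTC and 10.3, 18.8 and 8.62 RPKM in NTM embryos, log2 difference -3.56 ± 0.34, adjusted p = 0.000364), Zfp105, Zfp612 (3.91, 11.7 and 8.57 RPKM in NTC and 0.123, 0.559 and 0.07898 RPKM in NTM embryos, log2 difference -2.77 ± 0.43, adjusted p = 0.00311) and Zfp640 (18.7, 28.1 and 21.4 RPKM in NTC and 1.57, 3.93 and 3.96 RPKM in NTM embryos, log2 difference -2.56 ± 0.34, adjusted p = 0.00177). Zfp105 had 4.04, 10.1 and 8.75 RPKM in NTC embryos and was listed at 0 in all 3 NTM embryos (adjusted p = 0.00157). Of 73 genes of RNA polymerase II, its general factors and Mediator, 10 were higher and 7 lower, with a median of 0.03. Gtf2h1, a subunit of TFIIH, had 59.4, 68.4 and 77.9 RPKM in NTC and 1.89, 7.96 and 7.84 RPKM in NTM embryos (log2 difference -3.50 ± 0.43, adjusted p = 0.00117). Taf3, a TFIID subunit that reads methylated histone H3, had 152, 271 and 279 RPKM in NTC and 19.9, 30.3 and 27.9 RPKM in NTM embryos (log2 difference -3.09 ± 0.28, adjusted p = 0.000296). Med25 had 14.2, 7.38 and 13.8 RPKM in NTC and 1.66, 0.707 and 0.0791 RPKM in NTM embryos (log2 difference -2.86 ± 0.43, adjusted p = 0.00274). Supt16, a subunit of the histone chaperone FACT, had 6.54, 14.7 and 16.6 RPKM in NTC and 2.22, 5.21 and 1.07 RPKM in NTM embryos (log2 difference -1.89 ± 0.49, adjusted p = 0.0242). The call of Supt16 was lost without any one of NTC replicates 2 and 3 and NTM replicates 1 and 3.

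Chromatin regulators were called lower more often than higher, as were all tested genes. Of 53 genes of chromatin remodelling and histone chaperones, 1 was higher (Smarcad1) and 11 were lower (median -0.35). Of 55 genes of histone acetylation, 4 were higher and 11 lower (median -0.32), and of 49 genes of histone methylation 3 were higher and 8 lower (median -0.26), or 4 and 4 with quantile normalisation. Sirt6, a deacetylase of histone H3, had 8.801, 6.31 and 9.84 RPKM in NTC and 0.152, 0.194 and 0.131 RPKM in NTM embryos (log2 difference -2.99 ± 0.33, adjusted p = 0.000761). The bromodomain protein Brd2, which binds acetylated histones, had 17.4, 18.7 and 17.1 RPKM in NTC and 1.99, 1.32 and 2.82 RPKM in NTM embryos (log2 difference -2.65 ± 0.30, adjusted p = 0.000787). Ing3, a subunit of the NuA4 acetyltransferase complex, had 31.9, 39.2 and 33.5 RPKM in NTC and 4.71, 7.97 and 1.64 RPKM in NTM embryos (log2 difference -2.80 ± 0.42, adjusted p = 0.00264). In these 3 genes the lowest NTC embryo was at least 3 times the highest NTM embryo.

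Enzymes that write and erase histone methylation were called in both directions, with Kdm1b, Kdm7a and Dpy30 higher. The summed level of this list was 1592, 1668 and 1649 RPKM in NTC and 2136, 2088 and 2174 RPKM in NTM embryos. The genes of the list given next, which had its largest differences, were all lower. Kdm6b, a demethylase of H3K27, had 6.21, 4.17 and 3.98 RPKM in NTC and 0.142, 0.195 and 0.0871 RPKM in NTM embryos (log2 difference -2.32 ± 0.34, adjusted p = 0.00242). Dot1l, the methyltransferase of H3K79, had 10.2, 8.69 and 9.82 RPKM in NTC and 1.23, 1.03 and 1.33 RPKM in NTM embryos (log2 difference -2.27 ± 0.30, adjusted p = 0.00157). Kdm2a, a demethylase of H3K36, had 4.56, 4.03 and 4.01 RPKM in NTC and 0.405, 0.251 and 0.331 RPKM in NTM embryos (log2 difference -1.97 ± 0.32, adjusted p = 0.00371). Ash1l had 4.48, 9.105 and 12.6 RPKM in NTC and 0.857, 3.42 and 0.751 RPKM in NTM embryos (log2 difference -1.90 ± 0.49, adjusted p = 0.0237). The NTC embryos lay within a narrow range for Kdm6b, Dot1l and Kdm2a, while the call of Ash1l was lost without any one of NTC replicates 2 and 3 and NTM replicates 1 and 3. Among remodellers Bptf, the largest subunit of NURF, had 30.999, 40.9 and 49.6 RPKM in NTC and 9.22, 11.8 and 13.4 RPKM in NTM embryos (log2 difference -1.72 ± 0.26, adjusted p = 0.00258). Nap1l4, a histone chaperone, had 30.5, 38.002 and 56.3 RPKM in NTC and 12.8, 15.7 and 8.89 RPKM in NTM embryos (log2 difference -1.65 ± 0.30, adjusted p = 0.00603). Chaf1a, of the chaperone CAF-1, had 26.6, 38.8 and 44.4 RPKM in NTC and 3.72, 17.4 and 4.23 RPKM in NTM embryos (log2 difference -2.26 ± 0.50, adjusted p = 0.013). Smarca4 (Brg1) had 5.89, 13.5 and 12.3 RPKM in NTC and 2.35, 2.35 and 2.34 RPKM in NTM embryos (log2 difference -1.72 ± 0.36, adjusted p = 0.0104). The calls of Chaf1a and Smarca4 were lost without NTC replicate 2 or NTC replicate 3.

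Of 18 genes of DNA methylation 1 was higher (Dppa3) and 2 were lower (Dnmt3a and Zfp57), with a median of -0.16, and with GC removed 3 were higher and 1 lower. Dnmt3a, the de novo methyltransferase of the oocyte, had 15.4, 14.2 and 16.6 RPKM in NTC and 4.23, 10.4 and 4.41 RPKM in NTM embryos (log2 difference -1.25 ± 0.35, adjusted p = 0.0309), and the call was lost without any single library other than NTM replicate 2. Of 13 genes of the Polycomb complex PRC1 none was higher and 1 was lower (Scmh1), with a median of -0.24, and 2 were higher and 0 lower once the C-window trend was removed. Scmh1 had 10.4, 19.9 and 12.6 RPKM in NTC and 3.34, 6.92 and 2.63 RPKM in NTM embryos (log2 difference -1.57 ± 0.38, adjusted p = 0.0197), and its call was lost without any one of NTC replicates 2 and 3 and NTM replicates 1 and 3. Bmi1 had 436, 394 and 403 RPKM in NTC and 717, 533 and 667 RPKM in NTM embryos and Pcgf1 283, 205 and 235 RPKM in NTC and 305, 319.9 and 279 RPKM in NTM embryos, and neither passed the threshold of 1 on the log2 scale (log2 differences 0.63 and 0.33).

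Imprinted genes were mostly too low to test. Of 33 genes with germline imprints 12 were tested, 1 was higher (Phlda2) and 4 were lower (Ube3a, Cdkn1c, Zrsr1 and Snrpn), with a median of -0.46, and with quantile normalisation 2 were higher and 1 lower. Snrpn had 6.73, 4.86 and 7.04 RPKM in NTC and 0.0327, 0.0627 and 0 RPKM in NTM embryos (log2 difference -2.79 ± 0.33, adjusted p = 0.00104). Cdkn1c had 2.87, 2.73 and 2.23 RPKM in NTC and 1.43, 0 and 0 RPKM in NTM embryos (log2 difference -1.42 ± 0.43, adjusted p = 0.045), and its call was lost in 5 of the 6 fits without 1 library. Zrsr1, expressed from the paternal allele, had 2.05, 1.15 and 1.38 RPKM in NTC and was listed at 0 in all NTM and all in vivo embryos (adjusted p = 0.0227). The call of Zrsr1 was lost without any one of NTC replicates 1 and 3 and NTM replicates 1 and 3. Of the genes imprinted by maternal H3K27me3, 4 of 17 were tested and 2 were lower. These were Prox1 (0.989, 1.74 and 3.27 RPKM in NTC and 0.0337, 0 and 0 RPKM in NTM embryos, log2 difference -1.50 ± 0.39, adjusted p = 0.024) and Bbx (3.82, 1.46 and 4.42 RPKM in NTC and 0.119, 0.757 and 0.188 RPKM in NTM embryos, log2 difference -1.59 ± 0.42, adjusted p = 0.0267), with a list median of -0.87, and neither was called with 4 of the single libraries left out in turn. With quantile normalisation 0 of the 4 were called.

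**Figure D3:**
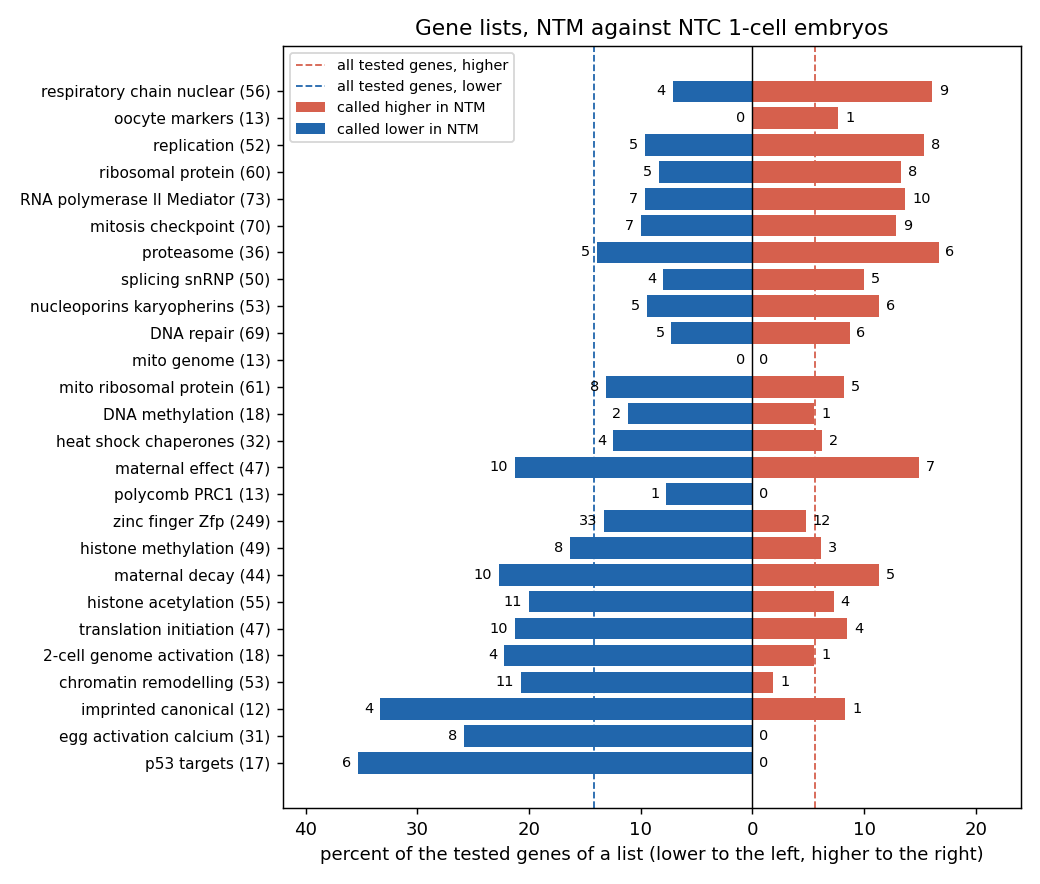
Share of the tested genes of each list that were called lower (blue, to the left) or higher (red, to the right) in NTM than in NTC 1-cell embryos, in percent, for lists with at least 12 tested genes, whose number stands in parentheses. Dashed lines give the shares over all tested genes (14.2% lower and 5.64% higher), and the numbers beside the bars are counts of genes, from 9 higher and 4 lower in the nuclear respiratory chain at the top to 0 higher and 6 lower among p53 targets at the bottom.

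In the protein synthesis machinery, genes of ribosomal proteins and of initiation factors were called in both directions. Of 60 tested genes of ribosomal proteins 8 were higher (Rplp1, Rps15a, Rps14, Rplp2, Rpl14, Rps27l, Rpl37a and Rps12) and 5 lower (Rps9, Rps4x, Rpl17, Rpl7a and Rpl7l1), with a median of -0.03. Rpl37a had 1.18, 3.12 and 1.05 RPKM in NTC and 13.2, 13.9 and 9.54 RPKM in NTM embryos (log2 difference 2.31 ± 0.37, adjusted p = 0.00339). Rps15a had 5.66, 3.805 and 5.26 RPKM in NTC and 20.2, 17.3 and 23.8 RPKM in NTM embryos (log2 difference 1.86 ± 0.27, adjusted p = 0.00231). Many genes of this family have processed copies, so single values are uncertain. Of 47 initiation factors and regulators 4 were higher and 10 lower, with a median of -0.27. The helicase Eif4a1, which has the copy Eif4a-ps4, had 60.8, 76.4 and 84.9 RPKM in NTC and 11.4, 8.24 and 8.44 RPKM in NTM embryos (log2 difference -2.85 ± 0.23, adjusted p = 0.000187). The scaffold Eif4g1 had 7.95, 8.26 and 10.3 RPKM in NTC and 0.235, 0.983 and 0.243 RPKM in NTM embryos (log2 difference -2.76 ± 0.35, adjusted p = 0.00134). Eif2ak1, a kinase that blocks initiation, had 14.1, 17.2 and 16.3 RPKM in NTC and 2.62, 2.52 and 1.12 RPKM in NTM embryos (log2 difference -2.49 ± 0.32, adjusted p = 0.00143). Eif4ebp2, which sequesters the cap-binding factor, had 3.15, 4.75 and 5.33 RPKM in NTC and 0.277, 0.114 and 0 RPKM in NTM embryos (log2 difference -2.24 ± 0.35, adjusted p = 0.0031). The lower genes of this list therefore included factors that promote and factors that restrain initiation.

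Nuclear genes for mitochondrial proteins were called in both directions, and genes of the mitochondrial genome in neither. Of 56 nuclear genes of the respiratory chain 9 were higher (Cox6c, Ndufa6, Atp5b, Ndufs1, Ndufa4, Cox7a2, Cox8a, Ndufa13 and Atp5l) and 4 lower (Sdhd, Ndufc2, Ndufb11 and Sdhc), with a median of 0.01. Sdhc had 10.3, 6.51 and 9.02 RPKM in NTC and 1.02, 1.39 and 0.541 RPKM in NTM embryos (log2 difference -2.28 ± 0.34, adjusted p = 0.00273). Of 61 mitochondrial ribosomal proteins 5 were higher, all of the small subunit (Mrps24, Mrps28, Mrps16, Mrps21 and Mrps14), and 8 lower, all of the large subunit (Mrpl32, Mrpl45, Mrpl38, Mrpl1, Mrpl46, Mrpl17, Mrpl47 and Mrpl12), with a median of -0.36. Whether the subunits differ was not tested, and the list turned to 10 higher and 5 lower with quantile normalisation and to 8 and 6 with GC removed. Mrpl46 had 14.5, 12.6 and 22.9 RPKM in NTC and 4.49, 0.4304 and 0.0856 RPKM in NTM embryos (log2 difference -3.07 ± 0.59, adjusted p = 0.00712). Mrpl45 had 10.01, 5.83 and 7.12 RPKM in NTC and 0.952, 1.49 and 0.233 RPKM in NTM embryos (log2 difference -2.22 ± 0.39, adjusted p = 0.00484). Mrpl47 had 8.05, 11.9 and 10.1 RPKM in NTC and 0.767, 2.79 and 2.12 RPKM in NTM embryos (log2 difference -1.99 ± 0.37, adjusted p = 0.00665). Mrpl17 had 6.19, 9.93 and 4.34 RPKM in NTC and 0.765, 1.65 and 0.102 RPKM in NTM embryos (log2 difference -2.12 ± 0.44, adjusted p = 0.0105), whose call was lost without NTC replicate 2. None of the 13 tested genes of the mitochondrial genome was called, and their median was -0.39. The most abundant were mt-Co1, with 14742, 12338 and 10223 RPKM in NTC and 8748, 5854 and 5869.6 RPKM in NTM embryos (log2 difference -0.88 ± 0.19, adjusted p = 0.0121), and mt-Rnr2, with 8440.1, 5668 and 7414 RPKM in NTC and 4740.2, 3446 and 5288 RPKM in NTM embryos (log2 difference -0.68 ± 0.19, adjusted p = 0.0354), both below the threshold of 1 in size although the groups did not overlap. For mt-Co1 the size passed it without NTC replicate 3 or NTM replicate 1.

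Cell cycle and genome maintenance genes were called in both directions. Of 70 genes of mitosis and its checkpoints 9 were higher (Cdc20, Anapc1, Pttg1, Ndc80, Cenpf, Cenpa, Mad2l1, Ccnb2 and Cdc16) and 7 lower (Fbxo5, Aurkb, Anapc11, Mad1l1, Plk1, Cdc25a and Smc4), with a median of 0.40. Fbxo5 (Emi1), the inhibitor of the anaphase-promoting complex, had 258, 258 and 279 RPKM in NTC and 12.9, 20.7 and 9.83 RPKM in NTM embryos (log2 difference -4.16 ± 0.26, adjusted p = 5.24e-05). The phosphatase gene Cdc25a had 30.3, 47.4 and 50.4 RPKM in NTC and 4.38, 11.3 and 10.3 RPKM in NTM embryos (log2 difference -2.23 ± 0.36, adjusted p = 0.00363). The condensin subunit Smc4 had 152, 256 and 231 RPKM in NTC and 21.9, 83.2 and 35.5 RPKM in NTM embryos (log2 difference -2.34 ± 0.43, adjusted p = 0.00623). Genes around the anaphase-promoting complex were thus called in both directions. Its inhibitor Fbxo5, its subunit Anapc11 and its chain-extending enzyme Ube2s, which is not in this list, were lower. Its activator Cdc20, its substrate Pttg1 and its subunits Anapc1 and Cdc16 were higher. Of 52 replication genes 8 were higher and 5 lower, with a median of 0.34. The helicase factor Cdc45 had 2.55, 3.62 and 2.62 RPKM in NTC and 14.8, 15.4 and 17.3 RPKM in NTM embryos (log2 difference 2.10 ± 0.27, adjusted p = 0.00149) and the ribonucleotide reductase subunit Rrm1 had 2.23, 5.497 and 8.16 RPKM in NTC and 25.98, 22.8 and 17.3 RPKM in NTM embryos (log2 difference 1.98 ± 0.40, adjusted p = 0.00891). In the other direction, the loading factor Cdc6 had 35.6, 30.5 and 43.3 RPKM in NTC and 4.61, 15.3 and 6.24 RPKM in NTM embryos (log2 difference -2.09 ± 0.39, adjusted p = 0.00638). The origin recognition subunit Orc3 had 11.9, 14.98 and 18.97 RPKM in NTC and 2.94, 3.76 and 0.209 RPKM in NTM embryos (log2 difference -2.50 ± 0.51, adjusted p = 0.00975), whose call was lost without NTC replicate 3.

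Of 69 DNA repair genes 6 were higher (Msh6, Brca1, Blm, Palb2, Fancb and Rnf8) and 5 lower (Rad51d, Xrcc3, Pms1, Xrcc5 and Nbn), with a median of -0.10. The mismatch repair gene Msh6 had 24.95, 30.4 and 28.9 RPKM in NTC and 81.8, 74.4 and 95.8 RPKM in NTM embryos (log2 difference 1.54 ± 0.19, adjusted p = 0.00126). Pms1 had 9.96, 11.7 and 10.8 RPKM in NTC and 0.243, 1.67 and 3.33 RPKM in NTM embryos (log2 difference -2.28 ± 0.46, adjusted p = 0.00888). Nbn, of the double-strand break sensor, had 10.96, 30.4 and 21.4 RPKM in NTC and 0.697, 0.748 and 7.25 RPKM in NTM embryos (log2 difference -2.81 ± 0.64, adjusted p = 0.0146). Xrcc5 (Ku80) had 18.5, 28.5 and 24.1 RPKM in NTC and 2.405, 9.96 and 5.69 RPKM in NTM embryos (log2 difference -1.95 ± 0.42, adjusted p = 0.0117). The calls of Nbn and Xrcc5 were lost without NTC replicate 2 or NTC replicate 3. Of 17 p53 target genes none was higher and 6 were lower (Bax, Gadd45b, Perp, Btg2, Cdkn1a and Trp53 itself), with a median of -1.04. After the trend with GC or with the C window was removed, 1 gene of this list was called, also lower. The p53-inducible Rps27l, which was higher in NTM, is not in this list. Trp53 had 12.4, 19.04 and 22.01 RPKM in NTC and 6.44, 2.27 and 3.85 RPKM in NTM embryos (log2 difference -1.90 ± 0.37, adjusted p = 0.00797). Bax had 2.84, 5.27 and 6.45 RPKM in NTC and 0.0813, 1.79 and 0 RPKM in NTM embryos (log2 difference -1.96 ± 0.49, adjusted p = 0.0214). Btg2 had 25.8, 15.1 and 7.36 RPKM in NTC and 3.76, 2.05 and 7.33 RPKM in NTM embryos (log2 difference -1.63 ± 0.50, adjusted p = 0.0458). Gadd45b had 0.781, 5.95 and 7.03 RPKM in NTC embryos and was listed at 0 in all NTM and in vivo embryos (adjusted p = 0.0237). The calls of Bax, Btg2 and Gadd45b were each lost without 4 of the 6 libraries in turn.

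Protein turnover, splicing and nuclear transport lists were close to even. Of 36 proteasome genes 6 were higher and 5 lower (median -0.19), or 5 and 6 with quantile normalisation. Psme3, the nuclear activator of the proteasome, had 157, 152 and 146 RPKM in NTC and 25.4, 30.7 and 19.6 RPKM in NTM embryos (log2 difference -2.56 ± 0.20, adjusted p = 0.000187). The base subunit Psmd1 had 38.6, 46.4 and 46.9 RPKM in NTC and 5.27, 8.48 and 6.696 RPKM in NTM embryos (log2 difference -2.54 ± 0.25, adjusted p = 0.000377). Psmc1 had 84.1, 113 and 114 RPKM in NTC and 19.1, 30.7 and 38.5 RPKM in NTM embryos (log2 difference -1.82 ± 0.27, adjusted p = 0.00265). Psmd11 had 14.6, 12.3 and 14.4 RPKM in NTC and 2.05, 6.19 and 3.49 RPKM in NTM embryos (log2 difference -1.67 ± 0.35, adjusted p = 0.011), a call lost without NTC replicate 3. Of 50 genes of spliceosomal particles 5 were higher (Dhx15, Sf3b6, Snrpg, Snrpe and Lsm5) and 4 lower (Snrpc, Prpf4, Sf3b4 and Snrpn), with a median of 0.19. Sf3b4, of the U2 particle, had 26.5, 19.8 and 44.3 RPKM in NTC and 0.196, 0.469 and 0.05604 RPKM in NTM embryos (log2 difference -4.59 ± 0.37, adjusted p = 0.000187). Snrpe had 2.81, 2.52 and 2.68 RPKM in NTC and 13.9, 12.1 and 21.7 RPKM in NTM embryos (log2 difference 2.16 ± 0.31, adjusted p = 0.00215). Lsm5 had 7.99, 1.03 and 4.55 RPKM in NTC and 19.7, 10.3 and 20.7 RPKM in NTM embryos (log2 difference 1.88 ± 0.54, adjusted p = 0.0344), a call lost without any one of NTC replicates 2 and 3 and NTM replicates 1 and 3. Of 53 genes of the nuclear pore and its transport receptors 6 were higher and 5 lower, with a median of 0.43. Ranbp2, the largest nucleoporin of the cytoplasmic side, had 1.75, 1.77 and 1.51 RPKM in NTC and 12.9, 12.8 and 13.5 RPKM in NTM embryos (log2 difference 2.39 ± 0.28, adjusted p = 0.000905). Kpna2, an importin that is abundant in oocytes and has the copy Gm10184, had 1444, 1103 and 1268 RPKM in NTC and 239, 425 and 390.4 RPKM in NTM embryos (log2 difference -1.89 ± 0.22, adjusted p = 0.00102). The pore protein Pom121 had 36.4, 37.7 and 35.3 RPKM in NTC and 10.96, 11.4 and 12.1 RPKM in NTM embryos (log2 difference -1.59 ± 0.20, adjusted p = 0.00138). Ranbp10 had 5.75, 6.36 and 5.36 RPKM in NTC and 1.46, 1.504 and 0.7304 RPKM in NTM embryos (log2 difference -1.63 ± 0.33, adjusted p = 0.009). Of 32 heat shock proteins and chaperones 2 were higher (Hspb1 and Hspe1) and 4 lower (Hsp90b1, Hsp90aa1, Dnajc3 and the transcription factor Hsf1). The median was -0.25, and the counts were 3 and 3 with median-ratio scaling and 4 and 3 with the C window removed. Hspe1 had 16.8, 14.6 and 13.9 RPKM in NTC and 52.9, 48.8 and 50.1 RPKM in NTM embryos (log2 difference 1.68 ± 0.20, adjusted p = 0.000957). Hsp90b1, of the endoplasmic reticulum like Calr, had 51.7, 77.4 and 90.02 RPKM in NTC and 8.11, 25.3 and 10.2 RPKM in NTM embryos (log2 difference -2.38 ± 0.40, adjusted p = 0.00421). Hsp90aa1 had 1768, 2375 and 2335 RPKM in NTC and 417, 1461 and 464 RPKM in NTM embryos (log2 difference -1.70 ± 0.42, adjusted p = 0.0199), and its call was lost without any one of NTC replicates 2 and 3 and NTM replicates 1 and 3.

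Some of the genes named above share exon bases with another gene, so their reads cannot be assigned with certainty (Hmga1, Rplp2, Fn1, Ube2s, Spp1, Ccdc68, Nlrp9b, Cnot3, Sp110, Zfp955b, Taf3, Supt16, Eif4a1, Eif2ak1, Mrpl46, Mrpl47, Psmd1, Snrpn, Pom121, Cdc45, Pms1, Kdm6b, Ash1l, Brd2, Chaf1a, Hsp90b1, Hspe1, Bax, Prox1, Cdkn1c and Zrsr1). Others have a locus of near-identical sequence elsewhere (Zfp640, Rpl37a, Sf3b4, Snrpe, Lsm5, Hsp90aa1, Pcgf1, Oog1 and mt-Co1). Of the 12 genes with the largest differences in each direction, those that share no such sequence were Selenow, Rln3, Ubl7, Nr2e1, Ybx2 and Nat14 among the lower and Ripply3, Acbd7, Phlda2, Mgst3, Edem2, Ndufa4, Cox7a2 and Cd300c among the higher genes.

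The cell types that the libraries could hold were checked by their markers. Oocyte markers were all above the filter, and 1 of 13 was higher (Dppa3) and 0 were lower, with a median of 0.27. Their summed level was 5851 to 6588 RPKM in NTC, 9139 to 11150 RPKM in NTM and 6450 to 19783 RPKM in vivo, so the NT groups did not overlap in this sum. Most of the sum came from Btg4, which drives removal of maternal mRNA (2751, 3067 and 2349 RPKM in NTC and 5877, 3875 and 5032 RPKM in NTM embryos, log2 difference 0.84 ± 0.17, adjusted p = 0.00956), Bmp15 (1357, 1111 and 1235 RPKM in NTC and 2113, 2379 and 2224 RPKM in NTM embryos, log2 difference 0.86 ± 0.12, adjusted p = 0.00231) and Oog1 (1035, 1056 and 983 RPKM in NTC and 1834, 1487 and 1587 RPKM in NTM embryos, log2 difference 0.67 ± 0.13, adjusted p = 0.00657). These 3 genes had lower NTC than NTM levels in every library but differed by less than 1 on the log2 scale, and with median-ratio scaling Btg4 and Bmp15 passed it. The zona pellucida genes Zp2 (109, 120.1 and 109.8 RPKM in NTC and 176, 148 and 149 RPKM in NTM embryos, log2 difference 0.47 ± 0.16, adjusted p = 0.0564) and Zp3 (59.9, 55.6 and 40.9 RPKM in NTC and 97.1, 44.7 and 44.6 RPKM in NTM embryos, log2 difference 0.17 ± 0.32, adjusted p = 0.733) did not pass the test.

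Few markers of the donor cells passed the filter, and those that did were at low levels in both kinds of embryo. Of 14 cumulus markers 5 were tested and none was called, and their sum was 6.86 to 12.7 RPKM in NTC and 7.96 to 13.7 RPKM in NTM. The most abundant of them were Cyp19a1, the aromatase (3.62, 3.62 and 3.04 RPKM in NTC and 4.52, 4.05 and 4.26 RPKM in NTM embryos), and Hsd3b1 (3.14, 5.79 and 1.49 RPKM in NTC and 6.397, 3.54 and 1.14 RPKM in NTM embryos), while Amh, Inha and Foxl2 were at 0 in all 6 libraries. Cyp19a1 did not mark these donor cells, since it was listed at 0 in all 3 CC libraries and at 3.31, 4.79 and 6.41 RPKM in vivo. Hsd3b1 had 6.79, 46.8 and 462 RPKM in CCs and 0, 0 and 0.951 RPKM in vivo. Of 14 fibroblast markers 3 were tested and none was called, and their sum was 2.98 to 4.41 RPKM in NTC and 0.861 to 5.25 RPKM in NTM. Fibronectin (Fn1) had 1.34, 2.82 and 2.23 RPKM in NTC and 0.508, 0.486 and 0.254 RPKM in NTM embryos (log2 difference -1.12 ± 0.35, adjusted p = 0.0501). The collagens Col1a1 and Col1a2 were at 0 in all 6 libraries although MEFs had 2140.0, 2980.5 and 3335 RPKM of Col1a1. The leukocyte markers Lyz2, Ptprc, Cd52 and Cd74 were at 0, and of the erythroid markers Hba-a1 reached 0.122 RPKM in NTC replicate 1 and was otherwise at 0. Of the sex genes, Xist, Tsix, Uty, Ddx3y and Eif2s3y were at 0 in all 6 libraries and Kdm5d was at 0.0994 RPKM or less, so neither donor was marked by them.

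RNA carried over with the donor nucleus was sought in transcripts that in vivo 1-cell embryos lack. The limits of this search were set after the values had been seen. Genes were taken with less than 0.5 RPKM in every in vivo 1-cell library and at least 100 RPKM in every library of a donor, and for one donor only with less than 20 RPKM in every library of the other. The 12 genes of CCs only had a summed level of 50.2, 44.8 and 39.1 RPKM in NTC and of 1.31, 3.06 and 0.0373 RPKM in NTM embryos, against 0.169 to 0.550 RPKM in vivo. Most of the NTC sum was Hmga1b, whose reads are uncertain because of Hmga1, and without it the sum of the other 11 genes was 15.8, 5.82 and 10.5 RPKM in NTC and 1.18, 3.02 and 0 RPKM in NTM embryos. Of these 11 genes, 8 were above 0 in at least 1 NTC embryo. Bex4 had 12.6, 4.73 and 1.19 RPKM in NTC and 0 in all NTM and in vivo embryos. In NTC replicate 3, Efemp1 (3.13 RPKM), Krt18 (2.69 RPKM) and Ephx2 (2.53 RPKM) were above Bex4, while Krt18 was at 0 in the other NTC embryos and at 2.85 RPKM in NTM replicate 2. CCs had 671, 569 and 782 RPKM of Bex4, an X-linked gene related to Bex3. Abundant transcripts of CCs such as Gm2a, Sfrp4 and Inha were at 0 in all 6 NT embryos.

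The 40 genes of MEFs only gave 3.97, 0.171 and 18.9 RPKM in NTM and 6.76, 5.402 and 9.13 RPKM in NTC embryos, so these groups overlapped and NTM embryos had no common excess of MEF transcripts. The 23 genes of both donors gave 146, 57.7 and 97.8 RPKM in NTC and 16.9, 29.7 and 26.5 RPKM in NTM embryos. Of these genes, 15 to 20 were above 0 in an NTC embryo against 8 to 10 in an NTM embryo. Over all 27238 genes, 14021 to 14270 were above 0 in the NTC libraries and 12097 to 12346 in the NTM libraries. Whether the set differs more than all genes do was not tested. Spp1 was the largest part of this sum in NTC replicates 1 and 3. Ier3, an early response gene, had 4.28, 2.94 and 3.12 RPKM and the cathepsin gene Ctsl had 2.61, 1.37 and 2.102 RPKM in NTC embryos, and both were at 0 in every NTM and in vivo embryo. Rps3a2, a ribosomal protein locus with near copies, showed no such separation, with 19.8, 19.8 and 14.8 RPKM in NTC and 8.74, 23.9 and 21.6 RPKM in NTM. The sets were defined by donor and in vivo levels, but the limits on these levels were set after the values had been seen. The sums are therefore not independent of that choice, and no test was made of them.

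The base composition of the transcripts moved with the direction of the difference. Over 10746 tested genes with an annotated transcript, the share called lower rose from 3.71% of the 404 genes whose C-richest window of 30 bases held at most 10 C to 38.5% of the 283 genes with at least 21 C, while the share called higher fell from 7.43% to 1.77%. In between, 12.8% of the genes with 15 or 16 C, 21.1% with 17 or 18 C and 34.9% with 19 or 20 C were called lower. By GC content of the whole transcript, the share called lower was 6.98% among the 2150 genes with the lowest GC (25.96% to 43.4%) and 25.03% among the 2149 with the highest (54.2% to 73.7%), and the median log2 difference went from 0.09 to -0.53. Of the 119 genes lower by at least 3, 65.5% had a window with at least 17 C, against 22.4% of all tested genes. Of the 12 lower genes named by the rule, Selenow, Phf1, Hmga1, Hmga1b, Ubl7, Ube2s, Nr2e1, Ybx2 and Nat14 have such a window, whereas Cfl1, Rln3 and Spp1 do not. Ripply3, Phlda2, Hspb1 and Edem2 are examples of named higher genes that have one too.

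The relation was broad and weak for a single gene. Across the 10746 genes, which share the same libraries, the log2 difference had a Pearson correlation of -0.20 with GC content, -0.22 with the C window, -0.17 with the richest window of G, 0.09 with that of T and 0.02 with transcript length. C-rich windows and GC content went together. Among the most GC-rich of 3 equal groups of genes, 32.6% of the genes with at least 17 C were lower, and among the least GC-rich 8.27% of the genes with at least 17 C were. In each library the level of GC-rich relative to GC-poor genes (median log2(RPKM + 1) of the highest minus the lowest GC group) was -0.79 to -0.91 in NTC, -1.57 to -1.67 in NTM, and -2.02, -1.25 and -1.004 in in vivo 1-cell embryos. NTC and NTM embryos did not overlap in this value. The reads were made by tailing and amplification without molecular identifiers, and the part of amplification in this relation was not tested.

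**Figure D4:**
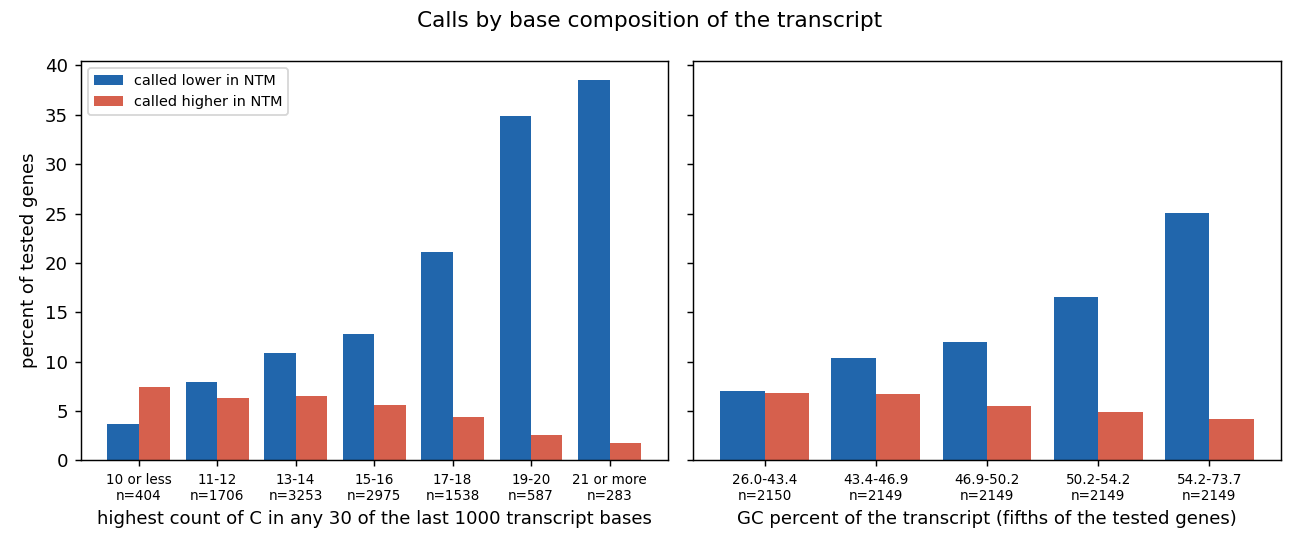
Percent of tested genes called lower (blue) and higher (red) in NTM, by the highest count of C in any 30 of the last 1000 transcript bases (left) and by GC percent of the transcript in 5 groups of equal size (right), with the number of genes under each pair of bars. The share called lower reached 38.5% at 21 or more C and 25.03% in the GC-richest group.

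In vivo 1-cell embryos entered neither side of the comparison, and their median levels are given here beside those of the NT groups. The lower and higher genes were chosen because their NTC and NTM values lay far apart. A position of the in vivo embryos between the NT groups therefore follows in part from this choice. The single genes that lay between the NT groups were not counted. The median level of the 1533 lower genes, as log2(RPKM + 1), was 3.56 to 3.67 in NTC, 1.44 to 1.71 in NTM and 1.32, 2.89 and 3.08 in vivo, so in vivo replicates 2 and 3 lay between the NT groups and replicate 1, the library that stood apart, lay below NTM. The median level of the 609 higher genes was 3.26 to 3.45 in NTC, 4.74 to 4.92 in NTM and 4.01 to 4.23 in vivo, again between them. For the 119 genes lower by at least 3 the in vivo medians were 3.10, 4.22 and 4.43, against 4.74 to 4.78 in NTC and 0.81 to 1.10 in NTM. All 10799 tested genes had medians of 2.61 to 2.63 in NTC, 2.23 to 2.39 in NTM and 1.37, 2.42 and 2.44 in vivo. In vivo replicates 2 and 3 thus lay between the NT groups over all tested genes as well. Within NTM, replicate 2 was the highest library for 49.6% of the lower genes and for 17.4% of the higher genes, which is nearer to NTC in both directions.

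The same genes were low in one further library of the series. In vivo 2-cell replicate 3 was at least 1 log2 unit below both other in vivo 2-cell embryos for 71.6% of the 1533 lower genes, against 36.0% of all tested genes, and for 90.8% of the 119 genes lower by at least 3. In vivo 1-cell replicate 1 was below its mates by that margin for 61.0% of the lower genes against 45.0% of all tested genes. These 2 libraries exceeded the share of all tested genes by 35.6 and 15.98 percentage points, and no other of the 60 libraries exceeded it by more than 5.01 points. The lower genes are therefore not low in NTM embryos alone, and they also separated single embryos of the in vivo group. Why these libraries share the pattern was not tested.

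**Figure D5:**
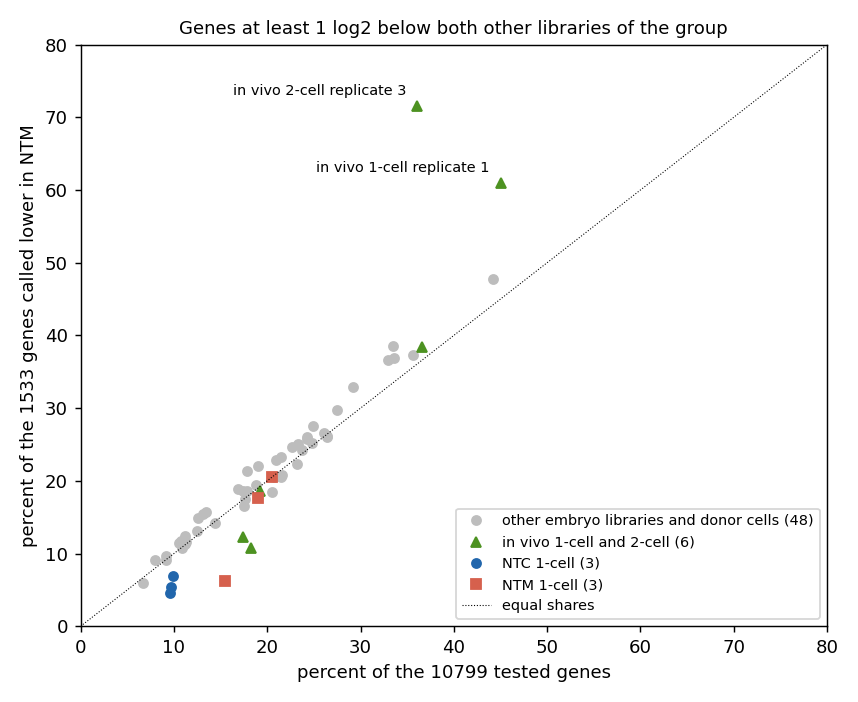
For each of the 60 libraries, the percent of the 1533 genes called lower in NTM (vertical axis) and of all 10799 tested genes (horizontal axis) that were at least 1 log2 unit below both other libraries of the same group, with green triangles for in vivo 1-cell and 2-cell, blue circles for NTC 1-cell, red squares for NTM 1-cell and grey for the rest. Most points lie near the dotted line of equal shares, and in vivo 2-cell replicate 3 (71.6% against 36.0%) and in vivo 1-cell replicate 1 (61.0% against 45.0%) lie above it.

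At the 2-cell stage no gene was called between NTM and NTC, but embryos of one group differed more there. Over the genes tested at the 1-cell stage, the median SD of log2(RPKM + 1) was 0.57 in NTC and 0.73 in NTM 2-cell embryos. In 1-cell embryos it was 0.31 in NTC and 0.42 in NTM. On simulated data the fit recovered few seeded changes at the 2-cell stage, so the absence of calls does not show that the groups were alike. None of 11609 tested genes was called by limma (0.00%), and 772 had an unadjusted p under 0.05, where one fit over all 20 groups called 515, and leaving out NTM 2-cell replicate 1 or 2 called 41 or 1. Of the 1533 lower genes 1455 were tested at the 2-cell stage and 883 of these (60.7%) were lower in NTM, with a median of -0.23, which is close to the 62.1% and -0.23 of all genes tested at both stages. Of the 609 higher genes 301 of 594 (50.7%) were higher at the 2-cell stage, with a median of 0.01, against 37.9% and -0.23 of all genes tested at both stages, a difference that was not tested. Cfl1, at 573, 655 and 719 RPKM in NTC and 609.8, 671 and 516 RPKM in NTM 2-cell embryos, overlapped between the groups. Selenow, at 96.04, 111 and 173 RPKM in NTC and 153, 183 and 198 RPKM in NTM 2-cell embryos, overlapped as well.

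The change of the difference between stages was tested with an interaction term over the 12 libraries. It was called for 233 of 11727 genes (1.99%), of which 145 (1.24%) had a more positive difference at the 2-cell than at the 1-cell stage and 88 (0.750%) a more negative one, and 1933 genes had an unadjusted p under 0.05. The 1-cell libraries enter both the 1-cell difference, by which genes are named here, and this change, so its direction in a named gene follows in part from the choice. For Cfl1 the change was 6.85 (adjusted p = 2.7e-07), for Phf1 6.52 (adjusted p = 1.89e-06) and for Ybx2 5.12 (adjusted p = 9.92e-05). The count was 100, 87 and 79 without NTC 1-cell replicates 1, 2 and 3, 108 and 98 without NTM 1-cell replicates 1 and 3, 151 without NTC 2-cell replicate 1, and 737 and 376 without NTM 2-cell replicates 1 and 3. The balance of directions turned without NTM 2-cell replicate 1, to 299 more positive and 438 more negative, and was 132 and 137 without NTM 2-cell replicate 2.

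Between the donor cells, the genes called in NT embryos were higher in MEFs about as often as lower. MEFs and CCs differed at 753 of 11978 genes (6.29%), 478 (3.99%) higher and 275 (2.30%) lower in MEFs, and the count was 421, 385 and 481 without MEF replicates 1, 2 and 3. Of the 1533 genes lower in NTM embryos 1153 were tested between the donors, 561 were lower and 592 higher in MEFs, and 42 and 36 of them were called. Of the 609 genes higher in NTM embryos 482 were tested, 251 were higher and 231 lower in MEFs, and 16 and 9 were called. Among all 7750 genes tested in both comparisons 53.4% were higher in MEFs, and 210 were called higher and 191 lower. Hmga1, Hmga1b and Spp1 were among the genes called lower in both NTM embryos and MEFs, with 295, 174 and 214 RPKM of Hmga1 in CCs and 62.7, 28.4 and 37.7 RPKM in MEFs. Zfp57 and Igf2bp2 were among the genes called lower in NTM embryos but higher in MEFs. Zfp57 had 0.226, 0.242 and 0.193 RPKM in CCs and 11.3, 9.31 and 16.1 RPKM in MEFs.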

How the data were processed

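Single embryos and donor cells were lysed, and mRNA was reverse transcribed, tailed and amplified without molecular identifiers. The authors deposited RPKM values for 27238 genes. The study's methods name TopHat, Bowtie2 and HTSeq, while the submitters' processing notes name Bowtie 0.12.2 and build mm8, so coordinates and sequences were taken from GENCODE M21 (GRCm38) by gene ID (27056 matched). Read totals came from the steps between RPKM values.

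From these values log2(RPKM + 1) was fitted in R 4.3.3 with limma 3.58.1 (lmFit, eBayes with an intensity trend), for genes with a mean of at least 0.5 RPKM in the libraries compared, in place of the count test of the study, because counts were not used here. On simulated data the fit recovered most of the seeded changes at the 1-cell stage and few at the 2-cell stage. Python 3.11.15 with pandas 2.3.3, numpy 2.4.6 and matplotlib 3.10.9 did the rest.

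Named genes were the 12 largest differences in each direction among called genes that separated every library, with a mean of at least 5 RPKM in the higher group and no predicted name, then up to 4 called genes per list (2 of the most abundant where fewer were called), and the cell markers. The members, lists and rules were chosen with earlier results of these data known. The GC, C-window and quantile corrections (lowess span 0.3) were chosen after seeing the data. Samples were grouped by the labels. The values of 1 gene named by this rule and the sequence window of another are not reported here.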

Additional observations from a re-analysis of the deposited data

Results flagged for a closer look

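The difference between NTM and NTC embryos changed from the 1-cell to the 2-cell stage in 233 genes, by the interaction term in limma over 12 libraries. Some of the named genes were among them, and the values below are the log2 difference at the 2-cell stage minus that at the 1-cell stage. The 1-cell libraries enter both the difference for which these genes were named and the change, so the direction of the change in them is in part set by that choice.

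The change was positive in most of these genes. It was 6.85 in Cfl1, 6.58 in Selenow, 6.52 in Phf1, 6.25 in Hmga1b, 6.01 in Ubl7, 5.80 in Hmga1, 5.27 in Rln3, 5.12 in Ybx2, 4.63 in Nat14, 4.48 in Ube2s and 4.03 in Nr2e1. Among the oocyte and early embryo genes it was 3.39 in Sebox, 2.32 in Zfp57, 3.72 in Cnot3 and 2.98 in Klf17. In genes of calcium signalling it was 4.199 in Calr and 3.76 in Orai1, and in genes of chromatin, transcription, splicing and the proteasome 3.55 in Ing3, 2.06 in Taf3, 4.42 in Sf3b4, 3.32 in Snrpn and 2.11 in Psme3. All of these were lower in NTM at the 1-cell stage.

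A negative change was found in 6 genes. It was -4.42 in Ccdc68, -3.69 in Ranbp2, -2.36 in Bmi1, -2.10 in Mgst3, -1.84 in Pttg1 and -1.71 in Cox8a. Bmi1 was not called at the 1-cell stage, and the other 5 were higher in NTM there.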

How the results depend on the processing

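Between NTM and NTC 1-cell embryos, 2142 genes were called. One fit over all 20 groups gave 1060, fits without 1 library gave 1193 to 2526, and no filter on low values gave 1484. At the 2-cell stage the count of 0 became 515 with one fit over all groups and 0 to 41 without 1 library. Between MEFs and CCs the count of 753 became 414 with no filter, 3380 with one fit over all groups and 385 to 701 without 1 library. For the change between the stages 233 became 460 with one fit over all groups and 79 to 737 without 1 library. The cause of these movements was not tested, apart from the larger number of genes tested with no filter. No named gene that was called changed sign under any alternative run, but balances of direction turned. The change between the stages had 145 positive and 88 negative genes, and 299 and 438 without NTM 2-cell replicate 1 or 132 and 137 without replicate 2, and the lists whose balance turned with scaling are given beside their counts above. Of the named genes, 32 of 133 lost their call with one fit over all groups, 7 with GC removed and 8 with the C window removed. A pseudocount of 0.1, a mean RPKM of at least 1, nuclear genes only, no intensity trend and no fold change threshold kept each total within 1.5 times, although genes higher in NTM went from 609 to 927 with no fold change threshold and genes with a more negative change from 88 to 53 with no intensity trend.

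The deviations of same-numbered NTC and NTM 1-cell libraries correlated at 0.0169, 0.0117 and 0.00565, so no pairing by the replicate numbers in the titles was seen. With 3 libraries in each group this cannot exclude that same-numbered embryos shared a day or preparation. With the replicate block the 1-cell count was 1874, the 2-cell count 0, the MEF against CC count 691 and the count for the change 150. Not every library correlated best with its own number.

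Depth limits low genes, as 3 reads on 2000 bases equal up to 0.148 RPKM in these libraries, and reads without molecular identifiers cover counting error only.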
